A study of Mus musculus with 6 samples.

Results

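The 8 genes described here encode the class I major histocompatibility complex (MHC) and the machinery that loads it with peptide. They are the heavy chains H2-K1, H2-D1 and H2-T23, the light chain B2m, the peptide transporter subunits Tap1 and Tap2, the tethering factor Tapbp and the transcriptional coactivator Nlrc5. They were chosen by gene symbol, and all 8 were found among the 23183 symbols of the deposited values. The study deleted Nsrp1, which encodes the splicing factor NSrp70, in developing T cells and compared the mRNA of CD4+CD8+ double positive (DP) thymocytes between genotypes. Each genotype was sequenced in 3 libraries. The controls (WT) were Nsrp1 f/f mice, which carry the floxed alleles and no Cre. The conditional knockouts (cKO) were Nsrp1 f/f CD4Cre mice, in which the CD4 regulatory elements drive Cre from around the transition into the DP stage. All mice were C57BL/6 at 6 weeks of age, so floxed Nsrp1 alleles are common to both groups, and no group carried Cre without them. The labels do not say whether the libraries of a group came from separate mice, and p-values then measure only the spread between these libraries, which may be technical.

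A class I molecule is a heavy chain bound to beta-2 microglobulin, the product of B2m, and to a short peptide. Peptides are cut from cytosolic proteins by the proteasome, carried into the endoplasmic reticulum by the Tap1-Tap2 transporter and fitted into the empty heavy chain with the help of tapasin, the product of Tapbp, and of general chaperones. NLRC5 is recruited to class I promoters by the RFX, CREB/ATF and NF-Y proteins that bind their X and Y boxes, and cortical DP thymocytes are known for carrying little surface class I before they mature.

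The class I promoters are shown here because Nlrc5, which encodes the coactivator of these promoters, was among the genes called lower. A link between its level and those of the other genes was not tested. Each window is the RefSeq sequence on GRCm38.p6 from 250 bases before to 50 bases after a start site, written on the gene's strand. Capitals mark the matches, on either strand, to ATTGG (the core of the Y box, which NF-Y binds), TGACG (the core of the X2 box or CRE, which CREB/ATF proteins bind), GAAANNGAA (part of an interferon regulatory factor element) and GGGATTCCC (a palindromic kappa B site). The windows lie at chr17:34000298-34000597 on the minus strand for H2-K1, chr17:35262844-35263143 on the plus strand for H2-D1, chr2:122147437-122147736 on the plus strand for B2m, chr17:36032652-36032951 on the minus strand for H2-T23 and chr17:34187306-34187605 on the plus strand for Tap1.
H2-K1: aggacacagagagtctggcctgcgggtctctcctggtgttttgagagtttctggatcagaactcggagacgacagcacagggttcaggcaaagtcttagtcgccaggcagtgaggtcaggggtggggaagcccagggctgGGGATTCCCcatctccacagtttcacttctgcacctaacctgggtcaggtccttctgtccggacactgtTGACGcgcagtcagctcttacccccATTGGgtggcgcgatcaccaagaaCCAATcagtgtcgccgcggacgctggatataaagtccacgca
H2-D1: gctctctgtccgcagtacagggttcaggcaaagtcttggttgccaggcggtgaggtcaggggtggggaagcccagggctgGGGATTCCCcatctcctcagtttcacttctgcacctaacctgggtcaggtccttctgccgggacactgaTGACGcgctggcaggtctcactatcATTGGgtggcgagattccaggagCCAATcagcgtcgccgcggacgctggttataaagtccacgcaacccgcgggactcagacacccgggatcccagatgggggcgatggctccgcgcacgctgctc
B2m: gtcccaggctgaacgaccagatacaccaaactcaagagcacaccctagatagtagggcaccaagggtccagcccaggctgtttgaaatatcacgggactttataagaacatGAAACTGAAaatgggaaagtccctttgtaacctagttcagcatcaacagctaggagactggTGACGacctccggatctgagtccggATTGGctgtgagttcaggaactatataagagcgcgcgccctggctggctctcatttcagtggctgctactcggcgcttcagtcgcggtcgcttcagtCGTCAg
H2-T23: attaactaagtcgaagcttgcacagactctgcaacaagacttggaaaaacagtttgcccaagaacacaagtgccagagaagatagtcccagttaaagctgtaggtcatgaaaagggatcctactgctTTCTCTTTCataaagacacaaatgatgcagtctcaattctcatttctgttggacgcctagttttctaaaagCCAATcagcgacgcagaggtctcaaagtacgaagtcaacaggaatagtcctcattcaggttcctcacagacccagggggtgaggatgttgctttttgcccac
Tap1: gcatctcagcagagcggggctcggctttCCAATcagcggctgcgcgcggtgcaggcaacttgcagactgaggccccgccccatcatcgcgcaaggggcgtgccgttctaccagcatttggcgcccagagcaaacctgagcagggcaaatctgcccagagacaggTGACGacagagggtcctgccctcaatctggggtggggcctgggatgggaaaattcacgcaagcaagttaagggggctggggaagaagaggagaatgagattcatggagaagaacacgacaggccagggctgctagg

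In the windows of H2-K1, H2-D1 and B2m, TGACG was followed by ATTGG on the same strand after exactly 20 bases. This arrangement was noticed in these windows and then counted over all promoters. It occurred in 26 of 27025 promoter windows (0.0962%), and H2-M3, another class I heavy chain, was the only further class I gene of those examined to hold it. By comparison, ATTGG alone was present in 37.9% of all windows, TGACG in 21.0%, GAAANNGAA in 8.57% and GGGATTCCC in 0.37%. H2-K1 and H2-D1 also shared GGGATTCCC, which B2m lacked. B2m carried GAAANNGAA from position -139 to -131, and H2-T23 carried the same element on the opposite strand from position -123 to -115. H2-T23 had a Y box core but no TGACG in its window. Tap1 had a Y box core and TGACG, but not in that order. The window of Tapbp held ATTGG only. These matches are letters in a window and not measured binding sites.

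The mapped depth was estimated from steps of 1 fragment in the low FPKM values (FPKM, the number of fragments per kilobase of a gene's transcript, relative to library size) as 20.7 to 20.9 M fragments in WT (M, mega) and 13.2, 20.7 and 17.4 M in cKO 1, 2 and 3. Nsrp1, listed under its older symbol Ccdc55 and located at chr11:77044292-77078435, had an FPKM of 20.2, 20.7 and 21.1 in WT and of 17.7, 15.8 and 15.0 in cKO, so its deposited level was lower in cKO by 0.34 on the log2 scale and far from 0 (log2 difference -0.34, standard error 0.077, adjusted p = 0.00675, limma). An FPKM covers the whole gene and does not single out the deleted part. The 3 WT libraries lay close to counting noise, with a chi-square per gene of 1.47 to 1.58 between pairs, against 32.3 to 73.4 between pairs of cKO libraries. Xist was at 69.8 to 72.0 in WT and 4.07 to 5.44 in cKO, while the Y-linked genes Uty, Kdm5d, Ddx3y and Eif2s3y had no signal in any WT library and a level of at least 5.83 in each cKO library, so the genotype and the sex of the mice cannot be told apart in any result that follows. Total FPKM per library ranged from 521296 to 531517 in WT and from 701396 to 850548 in cKO.

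Among the 8 genes, H2-K1, H2-D1, Tapbp and Nlrc5 were lower in cKO, B2m was higher, and H2-T23, Tap1 and Tap2 did not pass the test, with directions that other scalings turned for B2m, Tapbp, Tap1 and Tap2. The test was limma on log2(FPKM + 1) after division by a size factor, over the 10326 genes that reached an FPKM of 1 in 3 or more libraries, with p-values adjusted by the Benjamini-Hochberg method at 0.05. On this scale the change of a low gene is understated. The 1 member called higher stands against 35.8% of all tested genes called higher, and the 4 called lower stand against 29.8% of all tested genes called lower. All 3 cKO libraries were below all 3 WT libraries for 6 members and above them for 1, against 33.3% and 39.2% of all tested genes. Their median log2 difference was -0.27, and that of all tested genes was 0.039. All 8 members passed the filter on low values, Nlrc5 through its WT libraries. When the mean of the WT libraries stood for 1 sample, 2 members, H2-K1 and Nlrc5, were still called lower and B2m was no longer called, beside 7.21% of all tested genes higher and 8.73% lower. That fit assumes that the lone WT sample varies like the cKO libraries. The log2 differences stay the same there, and the adjusted p by limma became 0.0294 for H2-K1, 0.0300 for Nlrc5, 0.0642 for H2-D1, 0.210 for B2m and 0.235 for Tapbp.

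**Figure D1:**
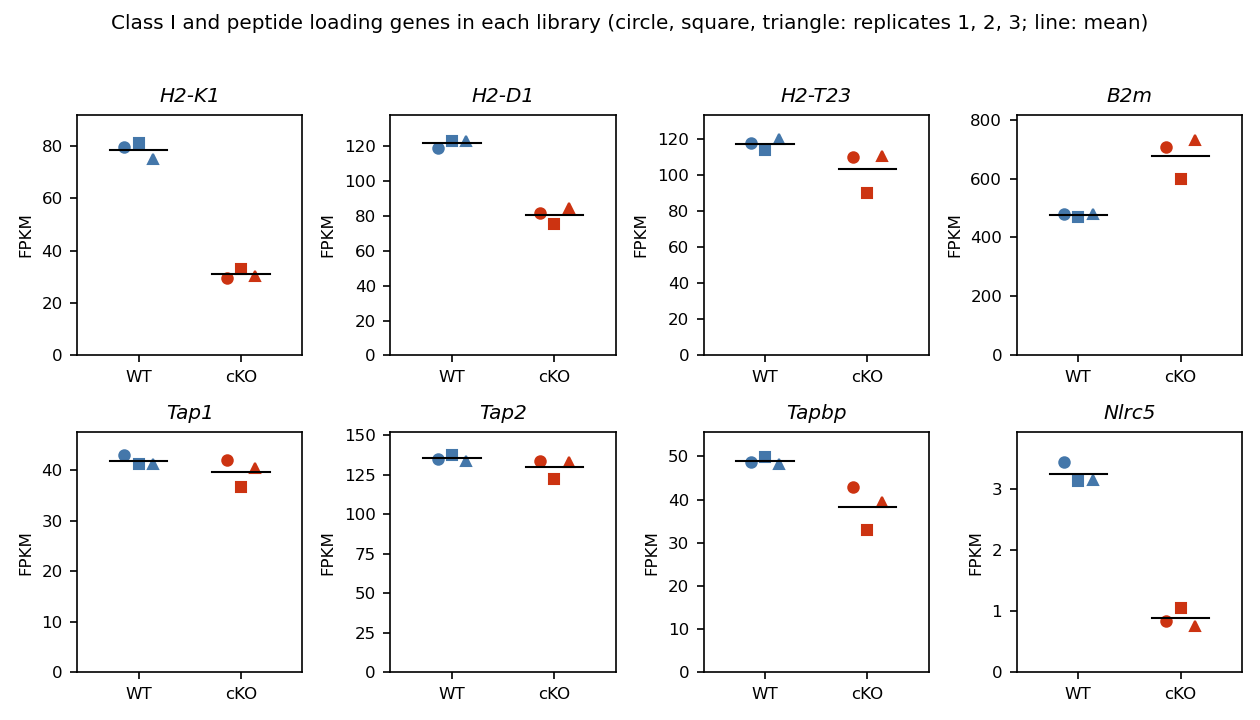
FPKM of each of the 8 genes (vertical axes, each from 0) in the 3 WT and 3 cKO libraries, with a symbol per replicate number and a line at the group mean. The cKO points of H2-K1, H2-D1, Tapbp and Nlrc5 lie below all WT points and those of B2m above them on the deposited scale, a direction that turned for B2m under 3 other scalings and for Tapbp under 1, and the points of Tap1 overlap.

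Nlrc5, the coactivator, lies at chr8:94434356-94527272 on the plus strand. Its FPKM was 3.45, 3.14 and 3.16 in WT and 0.839, 1.06 and 0.757 in cKO. The highest cKO library was thus below the lowest WT library by a wide margin. The means were 3.25 ± 0.172 in WT and 0.884 ± 0.154 in cKO (SD, n = 3 each), a level 3.67-fold lower in cKO. On the log2(FPKM + 1) scale the difference was -1.17 (standard error 0.092, adjusted p = 0.000146, limma). With the longest coding transcript as its length, the estimated fragments behind these values were 531, 480 and 483 in WT and 81.5, 161 and 97.2 in cKO, so this low-level gene rested on at least 81.5 estimated fragments in each library. None of its transcript's stretches of 100 bases occurs in a transcript of another gene. Under all alternatives run the difference stayed below 0 and past the threshold, from -1.78 with a pseudocount of 0.1 to -0.81 after GC and length correction.

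H2-K1 encodes the classical heavy chain H-2K and lies at chr17:33996017-34000347 on the minus strand. Its FPKM was 79.5, 81.0 and 75.1 in WT and 29.6, 33.1 and 30.5 in cKO. No cKO library reached 34, and no WT library fell under 75. The means of 78.6 ± 3.08 and 31.1 ± 1.81 (SD, n = 3 each) differed 2.53-fold. The log2 difference of -1.31 (standard error 0.068, adjusted p = 8.06e-05, limma) was the lowest among the 8 genes on the log2(FPKM + 1) scale. By FPKM the change of Nlrc5 was larger, at 3.67-fold. With a pseudocount of 0.1, Nlrc5 was at -1.78 and H2-K1 at -1.34. The difference of H2-K1 ranged from -1.86 to -1.21 over the alternatives and was called under each. No stretch of 100 bases in the longest coding transcript of H2-K1 occurs in a transcript of another gene. Other transcripts of H2-K1 do share such stretches with H2-Q5.

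H2-D1 encodes the other classical heavy chain of this strain, H-2D, and lies at chr17:35262730-35267499 on the plus strand. Its FPKM was 119, 123 and 123 in WT and 81.5, 75.6 and 84.6 in cKO. The groups did not overlap, and the level was 1.51-fold lower in cKO, from 122 ± 2.31 to 80.6 ± 4.58 (SD, n = 3 each). The log2 difference was -0.59 (standard error 0.071, adjusted p = 0.000518, limma). Of the 100-base stretches of H2-D1, 4.64% occur in transcripts of other genes, H2-Q1 among them, so a part of its reads can be split between genes. The ratio of H2-K1 to H2-D1 within a library does not depend on how libraries are scaled. That ratio was 0.668, 0.660 and 0.610 in WT and 0.363, 0.438 and 0.361 in cKO. It was therefore 1.67-fold lower in cKO, from 0.646 ± 0.0316 to 0.387 ± 0.0439 (SD, n = 3 each), with no overlap (exact two-sided permutation p = 0.1, the smallest that 3 against 3 libraries allow, and 0.125 adjusted over the 5 ratios computed).

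H2-T23 encodes Qa-1, a nonclassical heavy chain that presents leader peptides of other class I molecules, and lies at chr17:36029773-36032855 on the minus strand. Its FPKM was 118, 114 and 120 in WT and 110, 89.7 and 111 in cKO. All 3 cKO libraries were below all WT libraries, but cKO 2 stood apart from the other cKO libraries, and the log2 difference of -0.18 (standard error 0.0998, adjusted p = 0.146, limma) did not pass the test. Of its 100-base stretches, 7.28% are shared with transcripts of other genes, H2-D1 among them. With quantile normalization, the same FPKM total in each library or values corrected for GC content and length, H2-T23 was called lower, at -0.54, -0.74 and -0.33.

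Of 23 other class I and class I-like heavy chain genes on the list used, 12 passed the filter, and of these 1 was called higher, 6 lower and 5 neither. The shares over all tested genes were 35.8% higher and 29.8% lower. Of the 11 that did not enter the test, all were under an FPKM of 1 in every library, 3 of them at 0 throughout. The median log2 difference of the 12 was -0.21. With WT as 1 sample, 3 were called lower and Mr1 was not called (adjusted p = 0.111, limma), and without cKO 1 a further gene was called higher, 2 in all. Over all 10326 tested genes, 3712 were called higher and 3043 lower without cKO 1. H2-Q4, a Qa region gene of the H2-Q cluster, was at 98.5, 102 and 98.4 in WT and at 41.2, 45.8 and 39.1 in cKO. The 2.37-fold lower level of H2-Q4 in cKO (log2 difference -1.23, adjusted p = 9.14e-05, limma) was close in size to that of H2-K1. H2-Q7, which encodes a form of Qa-2, fell from 6.38 ± 0.570 to 2.11 ± 0.214 (SD, n = 3 each; log2 difference -1.25, adjusted p = 0.000134, limma), but 16.4% of its 100-base stretches are shared with other class I transcripts. The other genes called lower were H2-Q8, H2-T24, Cd1d1 and Cd1d2, between -1.18 and -0.30 on the log2 scale, and H2-Q8 passed the filter through WT alone. The list leaves out H2-Q5, H2-Q9, H2-K2, H2-T9 and H2-L, which were looked up after the values were seen. Of these, H2-Q9 (3.50 in WT and 0.506 in cKO, log2 difference -1.58) and H2-Q5 (7.77 and 2.27, log2 difference -1.50) were called lower, H2-K2 and H2-T9 were not called, and H2-L was not tested. For H2-Q5, 12.9% of the 100-base stretches occur in transcripts of other genes, H2-Q7 and H2-K1 among them. H2-Q9, like H2-Q8, passed the filter through WT alone. H2-Q2 was at 79.9 to 82.1 in WT and 69.9 to 78.9 in cKO and was not called (log2 difference -0.11, adjusted p = 0.191, limma), but it was called lower with quantile normalization (-0.39) and with the same FPKM total (-0.67). Mr1, whose product presents vitamin B metabolites to MAIT cells, was the 1 gene called higher, from 62.1 ± 0.0422 to 84.2 ± 3.07 (SD, n = 3 each; log2 difference 0.43, adjusted p = 0.000853, limma), although with the same FPKM total it was at -0.12.

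B2m, on chromosome 2 at chr2:122147686-122153083 and thus outside the MHC, had an FPKM of 481, 470 and 478 in WT and of 706, 599 and 729 in cKO. All cKO libraries were above all WT libraries, with cKO 2 nearest to them. The mean was 476 ± 5.85 in WT and 678 ± 69.7 in cKO (SD, n = 3 each). The log2 difference of 0.50 (standard error 0.107, adjusted p = 0.00522, limma) turned to -0.16 with quantile normalization, -0.059 with the same FPKM total and -0.39 after GC and length correction, where B2m was called lower (adjusted p = 0.00975, limma). The transcript of B2m is short and poor in GC, at 860 bases and 41.2% GC, beside 1619 bases and 56.3% for H2-K1 and 2102 bases and 55.9% for H2-D1. The direction of B2m therefore depends on the scaling, whereas H2-K1 was lower than B2m in relative change under all of them.

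Set against B2m in the same library, both classical heavy chains were lower in cKO. The ratio of H2-K1 to B2m was 0.165, 0.173 and 0.157 in WT and 0.0419, 0.0553 and 0.0419 in cKO, which is 3.59-fold lower (log2 difference -1.84). The ratio of H2-D1 to B2m was 0.248, 0.261 and 0.258 in WT and 0.115, 0.126 and 0.116 in cKO, which is 2.14-fold lower (log2 difference -1.10). Neither ratio overlapped between genotypes, and each had an exact two-sided permutation p = 0.1, the smallest possible, and 0.125 adjusted over the 5 ratios. These ratios are free of the scaling of libraries but not of a difference between libraries in the recovery of long or GC-rich transcripts. After GC and length correction, the log2 differences were -1.21 for H2-K1, -0.38 for H2-D1 and -0.39 for B2m. The difference of H2-D1 from B2m was therefore not seen on that scale, and that of H2-K1 was.

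**Figure D2:**
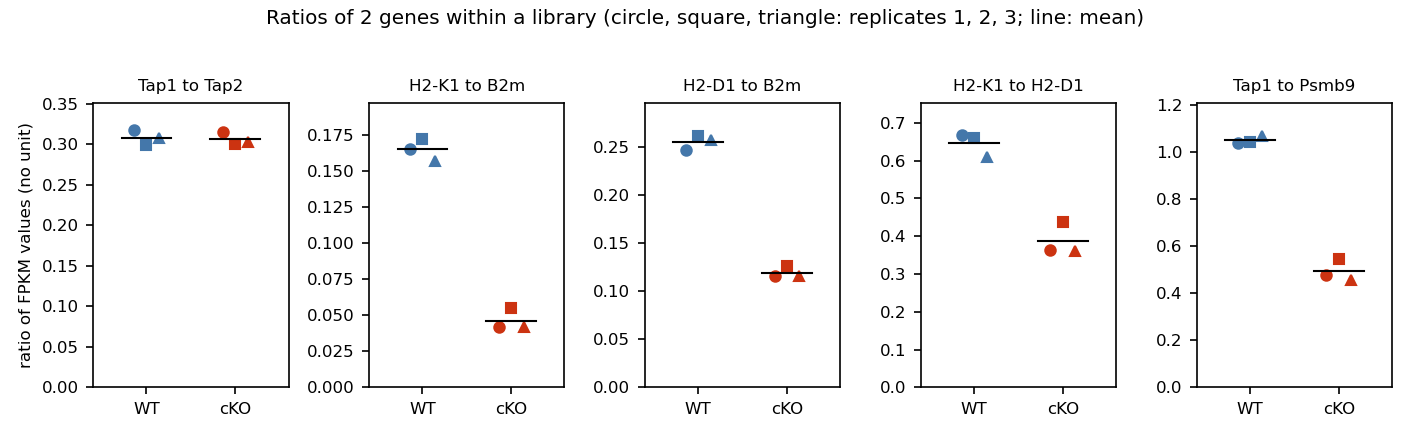
Ratios of the FPKM values of a pair of genes within 1 library (vertical axes, no unit, each from 0) for the 3 WT and 3 cKO libraries, with a symbol per replicate number and a line at the group mean. The ratio of Tap1 to Tap2 lies near 0.31 in both genotypes, whereas the other 4 ratios do not overlap between them.

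Tap1 and Tap2 encode the subunits of the peptide transporter and lie near each other in the MHC, at chr17:34187553-34197225 and chr17:34203527-34216321 on the plus strand. Tap1 was at 42.9, 41.2 and 41.1 in WT and at 42.0, 36.8 and 40.4 in cKO, with overlapping groups (log2 difference -0.073, standard error 0.073, adjusted p = 0.405, limma). Tap2 was at 135, 137 and 134 in WT and at 133, 122 and 133 in cKO (log2 difference -0.066, standard error 0.070, adjusted p = 0.434, limma). Both thus missed the threshold, and in both cKO 2 had the lowest value. The ratio of Tap1 to Tap2 was 0.308 ± 0.0092 in WT and 0.306 ± 0.0075 in cKO (SD, n = 3 each), a log2 difference of -0.0087 (exact two-sided permutation p = 0.8, and 0.8 adjusted over the 5 ratios). The ratio was between 0.299 and 0.318 in all 6 libraries, and leaving out 1 library moved its log2 difference to between -0.029 and 0.014. Their common direction on its own is not settled by these values, since Tap1 and Tap2 were called lower with quantile normalization (-0.22 and -0.47) and the same FPKM total (-0.62 for both), and higher after GC and length correction (0.37 and 0.41).

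Tapbp, which encodes tapasin, the bridge between the transporter and the empty heavy chain, lies at chr17:33915899-33929292 on the plus strand. Its FPKM was 48.6, 49.7 and 48.2 in WT and 42.8, 32.8 and 39.4 in cKO. The groups did not overlap, and the mean was 48.9 ± 0.779 in WT and 38.4 ± 5.07 in cKO (SD, n = 3 each), 1.27-fold lower. The call (log2 difference -0.35, standard error 0.103, adjusted p = 0.020, limma) was lost when any 1 WT library was left out, with adjusted p values of 0.0608, 0.0668 and 0.0563 without WT 1, 2 and 3. The log2 differences were then -0.35, -0.34 and -0.36. Fewer genes were called in general on these omissions. Of all tested genes, 2504, 2549 and 2536 were called lower, beside 3073 with all libraries. After GC and length correction the difference of Tapbp was 0.083 and not called.

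The level of these genes, compared per length as FPKM, had a different order in the genotypes. In WT the order from the highest was B2m, Tap2, H2-D1, H2-T23, H2-K1, Tapbp, Tap1 and Nlrc5, and of these neighbours only H2-D1 and H2-T23 overlapped. In cKO it was B2m, Tap2, H2-T23, H2-D1, Tap1, Tapbp, H2-K1 and Nlrc5, where the libraries of Tap1 and Tapbp and those of Tapbp and H2-K1 overlapped. H2-K1, at 78.6 in WT, was thus above Tapbp and Tap1 in WT, and at 31.1 in cKO its range overlapped that of Tapbp. The mean of Tap2 was above those of all the heavy chains in both genotypes.

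Psmb9 encodes a catalytic subunit of the immunoproteasome, and its start site at 34187330 lies 226 bases from that of Tap1 at 34187556 on chromosome 17, with transcription in opposite directions. The RefSeq windows of Psmb9 and Tap1 overlap by 275 bases, so the Tap1 sequence printed above holds most of both promoters. Psmb9 was at 41.3, 39.5 and 38.5 in WT and at 87.7, 67.3 and 88.8 in cKO. Every cKO library was above every WT library, with means of 39.8 ± 1.38 and 81.3 ± 12.1 (SD, n = 3 each), a log2 difference of 1.00 (standard error 0.117, adjusted p = 0.000477, limma). The ratio of Tap1 to Psmb9, which was chosen after the values were seen, was 1.05 ± 0.0153 in WT and 0.493 ± 0.0471 in cKO (SD, n = 3 each), 2.13-fold lower with no overlap (exact two-sided permutation p = 0.1, the smallest possible, and 0.125 adjusted). Psmb9 was called higher under all scalings run, down to 0.45 with the same FPKM total, whereas Tap1 was not called on the main scale.

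Of the 6 immunoproteasome genes in the files, 5 were tested, and 3 were called higher, none lower by limma and 2 neither, with a median log2 difference of 0.48. All 5 differences were above 0, so none was lower at an unadjusted p under 0.05 either. The shares over all tested genes were 35.8% higher and 29.8% lower. With WT as 1 sample, 1 of the 5, Psmb9, was called. Psmb10, another inducible catalytic subunit, was at 45.6 to 47.6 in WT and 55.8 to 80.6 in cKO (log2 difference 0.57, adjusted p = 0.00897, limma), and with the same FPKM total it was at 0.016 and not called. Psme2, a subunit of the PA28 activator, was at 89.6 to 95.5 in WT and 110 to 159 in cKO (log2 difference 0.48, adjusted p = 0.0180, limma), but the call was lost with quantile normalization (0.11), GC and length correction (0.029) and the same FPKM total (-0.078), and without WT 1 or WT 3 (adjusted p = 0.0567 and 0.0592, limma). Without WT 1 or WT 3 the calls over all tested genes also fell, to 3081 and 3113 higher from 3693. Psmb8, the third inducible catalytic subunit, and Psme1, the partner of Psme2, were above WT in all cKO libraries without passing the test (0.20 and 0.29, adjusted p = 0.0860 and 0.0632, limma), and both were below 0 with quantile normalization (-0.27 and -0.18) and with the same FPKM total (-0.36 and -0.27), whereas Psmb8 was called higher after GC and length correction (0.27). Without cKO 2, all 5 tested genes were called higher, but more genes were called in general, 4113 of all 10326 tested genes higher and 3554 lower. Psmb11, the catalytic subunit of thymic cortical epithelium, was under 0.18 in every library.

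Of 10 chaperone and trimming genes of the endoplasmic reticulum, 4 were called higher, 3 lower and 3 neither. These counts lie near the shares over all tested genes, 35.8% higher and 29.8% lower. The median log2 difference of the 10 was 0.13. None of the 10 was called by limma with WT as 1 sample, where 1 was higher at an unadjusted p under 0.05. Calr, the chaperone calreticulin of the loading complex, was at 137, 143 and 135 in WT and at 210, 163 and 205 in cKO (log2 difference 0.46, adjusted p = 0.00909, limma). Erap1, the aminopeptidase that trims peptides to length, was at 16.2 to 16.7 in WT and 21.0 to 25.4 in cKO (log2 difference 0.50, adjusted p = 0.00211, limma). Hspa5, the general chaperone BiP, was also higher (log2 difference 0.39, adjusted p = 0.00424, limma), as was Canx, which encodes calnexin. With the same FPKM total, Calr, Erap1 and Hspa5 were at -0.095, -0.033 and -0.17 and not called, and Calr and Hspa5 were also not called with quantile normalization (0.020 and 0.0022). Pdia3, which encodes ERp57, the disulfide partner of tapasin, was at 89.5 to 92.2 in WT and 82.4 to 102 in cKO, with a log2 difference of 0.0029 (adjusted p = 0.978, limma). Prkcsh, a glucosidase subunit (log2 difference -0.29, adjusted p = 0.0182, limma), and Tapbpl, the tapasin-related peptide editor TAPBPR (-0.18, adjusted p = 0.0324, limma), were called lower together with Ganab. None of these 3 was called without WT 1 or without WT 2, 1 was without WT 3 or cKO 3, and Prkcsh turned to 0.050 after GC and length correction. Over all tested genes, 2504 were called lower without WT 1 and 2549 without WT 2, beside 3073 with all libraries.

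Of 13 transcription factor genes known to act at class I promoters, 3 were called higher, 6 lower and 4 neither. The shares over all tested genes were 35.8% and 29.8%, and the median log2 difference of the 13 was -0.19. With WT as 1 sample, Rela and Irf2 were the 2 called. Rela, which encodes the NF-kappa B subunit p65, was at 35.2, 35.7 and 35.4 in WT and at 19.1, 18.8 and 17.4 in cKO (log2 difference -0.91, standard error 0.062, adjusted p = 0.000111, limma). Irf2, an interferon regulatory factor, was at 30.4 to 31.5 in WT and 17.2 to 20.2 in cKO (log2 difference -0.69, adjusted p = 0.000414, limma). Rela and Irf2 were lower and called under each scaling run, although Rela moved to -0.40 after GC and length correction. Irf1, Nfkb1, Rfxank and Nfya were also called lower, between -0.40 and -0.19. The other subunits of the trimer that binds the Y box went the opposite way to Nfya: Nfyb rose from 41.2 ± 0.0232 to 64.0 ± 6.15 (SD, n = 3 each; log2 difference 0.62, adjusted p = 0.000688, limma) and Nfyc from 47.4 ± 0.952 to 67.9 ± 3.01 (log2 difference 0.51, adjusted p = 0.000620, limma), although with the same FPKM total they were at 0.068 and -0.045. Creb1, whose product binds the X2 core, was called higher (log2 difference 0.41, adjusted p = 0.000928, limma) and was at -0.14 with the same FPKM total. Irf8 and the genes of the other RFX subunits, Rfx5 and Rfxap, were not called. Of the class I genes found with the pair of TGACG and ATTGG, H2-K1 and H2-D1 were called lower, and B2m was called higher with the scaling limits given above. H2-M3, which also holds the pair, was not called (log2 difference -0.035, adjusted p = 0.818, limma). The calls of the other genes among the 26 windows with this pair are not reported here.

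**Figure D3:**
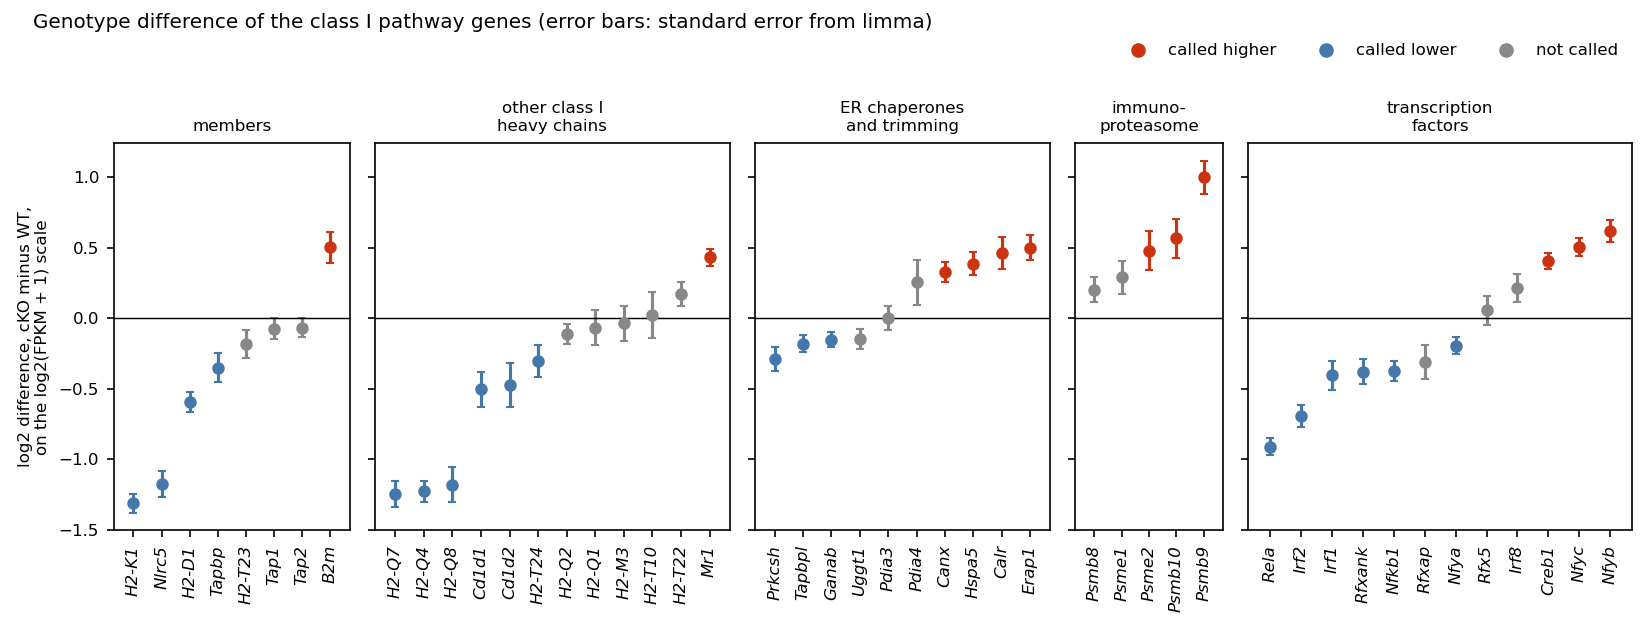
Log2 difference, cKO minus WT, on the log2(FPKM + 1) scale (vertical axis) for the 8 genes and tested genes of the other 4 lists, with the standard error from limma as bars and colours for the call. H2-K1, Nlrc5, H2-Q4, H2-Q7 and H2-Q8 lie below -1 and Psmb9 at 1.00, with all other genes between these limits. Several of the differences near 0 change sign with the scaling, as does that of B2m.

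The FPKM totals of the cKO libraries were above those of WT while all size factors were close to 1, and several calls moved with the scaling. With the same FPKM total in each library, the median log2 difference of all tested genes moved from 0.039 to -0.45. On that scale 7 of the 8 genes were called lower, while B2m, at -0.059, was not called and lay above the median of all genes. There 6181 of all 10326 tested genes were called lower and 902 higher. Quantile normalization also gave 7 called lower and B2m not called, and all 8 differences were below 0 under both. Of all tested genes, quantile normalization called 3041 lower and 3475 higher. GC and length correction gave 2 called higher, Tap1 and Tap2, and 5 called lower, B2m among them. Of the 10267 genes tested after that correction, 3279 were called higher and 2579 lower. H2-K1, H2-D1 and Nlrc5 were called lower under each of these scalings.

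**Figure D4:**
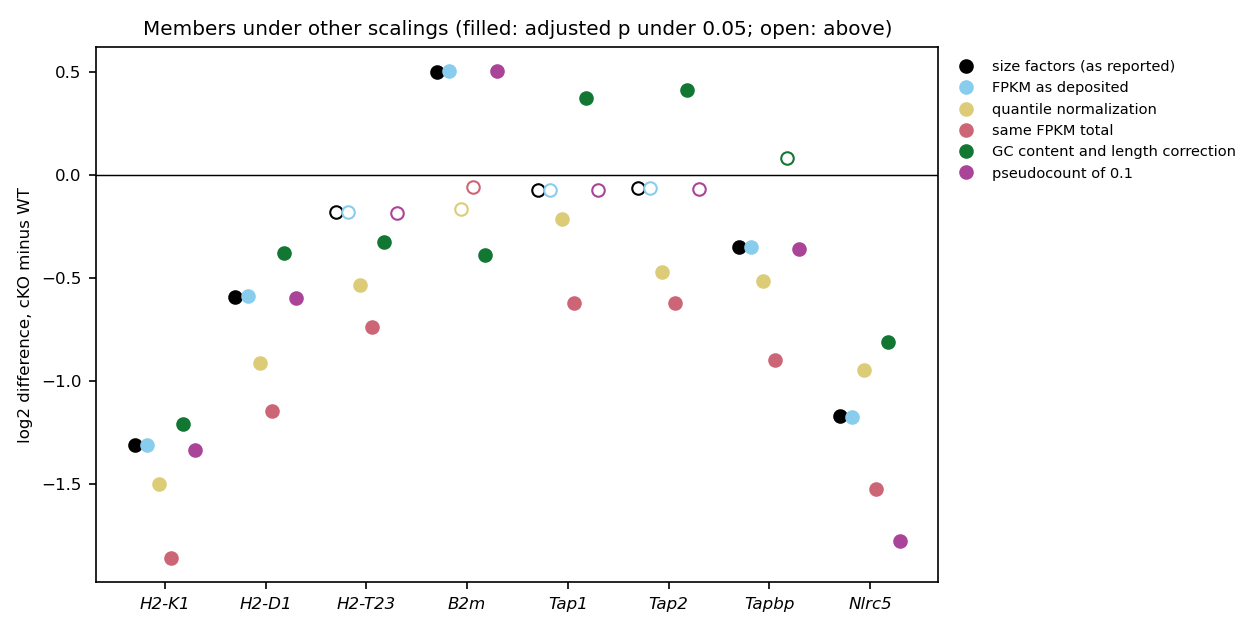
Log2 difference, cKO minus WT, of the 8 genes (horizontal axis) under 6 settings, with filled circles for an adjusted p under 0.05 and open circles above it. H2-K1, H2-D1 and Nlrc5 stay below 0 and filled under all 6, whereas B2m, Tap1, Tap2 and Tapbp have values on both sides of 0.

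All of these genes but B2m and Nlrc5 lie between the start of Tapbp at 33915899 and the end of H2-T23 at 36032855 on chromosome 17. In that interval 82 further genes were tested, of which 17 (20.7%) were called higher and 42 (51.2%) lower, with a median log2 difference of -0.33. The same shares over all tested genes were 35.8% and 29.8%, and this difference was not tested.

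The 3 tested genes with log2 values most like those of H2-K1 over the 6 libraries were Tdrp, Ago1 and Smad7, with Pearson correlations of 0.9999, 0.9997 and 0.9996. These are descriptions over 6 libraries that share the genotype split, and the points share library and depth. None of the 3 is a class I gene, and Smad7 passed the filter through WT alone.

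In bulk RNA from a sorted population, fewer cells of a type and less RNA per cell cannot be told apart, so the markers of the sorted and of other cell types are given. The 12 DP thymocyte markers were all tested, and their summed FPKM was 7024 to 7069 in WT and 7555 to 9195 in cKO. Cd8b1 (1254 in WT and 2279 in cKO) and Rag1 (973 and 1502) were the most abundant by mean among those called higher, 7 were called higher, 4 lower and 1 neither, and with quantile normalization Cd8b1 was at -0.028 and Rag1 at -0.18. Tcf7 (1441 and 976), Satb1 (612 and 419) and Arpp21 (207 and 175) were among those called lower. Of 12 mature single-positive markers, 11 were tested, of which 9 were called lower and 2 higher. The shares over all tested genes, to be read beside these and the DP markers, were 29.8% lower and 35.8% higher. Ccr7, S1pr1 and Klf2, which encode migration receptors of mature thymocytes and their regulator, were among the mature markers called lower, with log2 differences of -2.64, -2.21 and -1.73. S1pr1 passed the filter through WT alone. Gimap6 (199 and 243), the most abundant of the mature markers, was among those called higher, and the list's summed FPKM of 390 to 397 in WT overlapped that of 357 to 423 in cKO. Gimap6 was called at 0.28 and turned to -0.20 with quantile normalization and -0.28 with the same FPKM total. The part of the mature markers in the lower H2-K1, H2-D1 and Nlrc5 was not tested.

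The markers of cells that carry much class I or class II in the thymus were low. The class II genes, of which 7 of 11 were tested, summed to 48.2 to 49.9 in WT and 43.9 to 58.0 in cKO. H2-Oa, a class II chain that restrains peptide exchange (15.8 and 25.5, log2 difference 0.64), was called higher, whereas Cd74, the invariant chain (10.5 and 5.68, log2 difference -0.83), was called lower, as was H2-Ob. Thymic epithelial markers summed to 5.97 to 7.59 in WT and 5.18 to 7.48 in cKO, and 3 of 10 (Krt5, Krt14 and Foxn1) were at 0 in every library. Neither of the tested ones, Epcam (3.54 and 2.64) and Ccl25 (2.36 and 2.67), was called. The 13 dendritic cell and macrophage markers summed to 6.32 to 8.73 and 5.29 to 6.84, of which Cd68 (2.73 and 1.78) and Lyz2 (2.44 and 2.41) were tested and not called, and Itgax was under 0.17 in every library. B cell markers, 6 of 7 in the files, summed to 22.8 to 24.2 and 26.7 to 39.4, nearly all of it Cd79b (22.5 and 33.0), while each of the other 5 was at most 0.746 in every library. NK and gamma delta T cell markers, 6 of 8 in the files, summed to 6.48 to 7.67 in WT and 3.60 to 3.95 in cKO, most of it Nkg7 (5.82 and 2.98, called lower). Erythroid markers, 8 of 9 in the files, summed to 2.10 to 2.97 in WT and 15.3 to 31.5 in cKO, with Hbb-b1 (1.65 and 13.2) and Hba-a1 (0.659 and 7.95) called higher and Slc4a1 at 0 in every library. Hba-a1 passed the filter only with its cKO libraries.

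**Figure D5:**
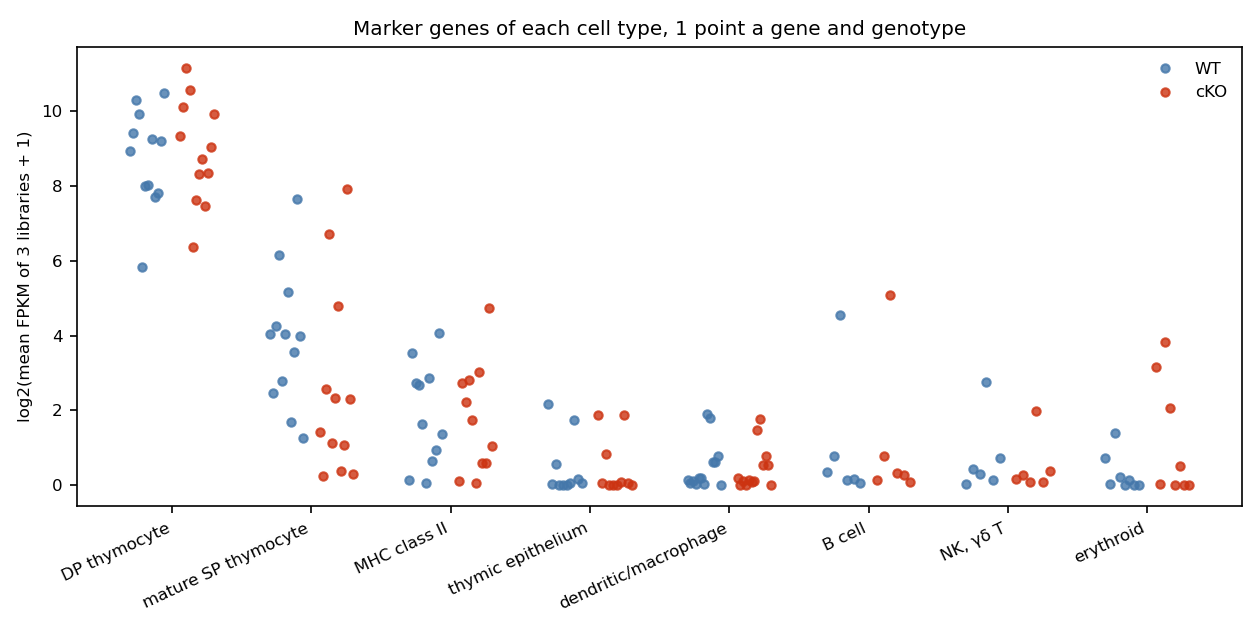
Level of the marker genes of each cell type (vertical axis, log2 of the mean FPKM of 3 libraries plus 1), with 1 point per gene and genotype. DP thymocyte markers lie highest in both genotypes, most mature single-positive points are lower in cKO, and most markers of epithelial, dendritic, B, NK and erythroid cells lie near 0.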

How the data were processed

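Processed values of 6 mRNA-seq libraries of DP thymocytes, 3 WT and 3 cKO, were analysed, and groups and replicate numbers came from the sample titles and genotype labels. The authors made strand-specific libraries, used fastx trimmer on the reads and Tophat for mapping to mm10, and deposited 1 FPKM value per gene symbol and library, computed with Cufflinks. Tool versions, the gene annotation and the strand setting of that step are not given in the sources used here. Because FPKM values are not counts, they were divided by a median-of-ratios size factor, and log2(FPKM + 1) was tested for genotype using limma 3.58.1 under R 4.3.3 (lmFit, eBayes with a trend, two-sided, Benjamini-Hochberg threshold of 0.05) over 10326 genes. The fit was run on simulated data in which both groups shared 1 spread per gene. The real spread differed, with a median SD of 0.044 in WT and 0.156 in cKO on the log2 scale. That run does not cover this difference. Ratios within a library were compared by exact permutation tests over libraries. Depth was estimated from single-transcript genes with an assumed fragment length of 200 bases, and the estimates cover counting error only.

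Loci and transcript lengths came from GENCODE release M21 on GRCm38, the assembly of mm10, and promoter windows from RefSeq on GRCm38.p6. Of 23183 symbols, 22148 matched directly and 666 through a synonym. Windows were used for H2-K1, H2-D1, H2-T23, B2m, Tap1, Tapbp and Psmb9. The members and gene lists were chosen with earlier results of these data known. Named were all members and Nsrp1, in each pathway list the 3 most abundant genes and the 2 of lowest adjusted p per direction, in each marker list the 2 most abundant genes, and the 3 genes most correlated with H2-K1. A few genes are left out of the text for reasons unrelated to their values. Other genes named by symbol, among them Canx, H2-M3, H2-Q8 and the mature markers other than Gimap6, were chosen after their values were seen. Alternatives were the pseudocount, the filter, the scaling, the trend, a replicate block, GC and length correction by natural splines of 5 degrees of freedom, the WT libraries as 1 sample and each library left out. Python 3.11.15 with numpy 2.4.6, pandas 2.3.3, scipy 1.17.1 and matplotlib 3.10.9 was used for the rest.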

Additional observations from a re-analysis of the deposited data

How the results depend on the processing

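H2-K1 and Nlrc5 were lower in cKO and called under every alternative run, and H2-D1 under all but the averaging of WT. With quantile normalization the log2 differences were -0.54 for H2-T23, -0.16 for B2m, -0.22 for Tap1 and -0.47 for Tap2, so 0 members were called higher and 7 lower, with 0 heavy chains and 1 chaperone called higher and 1 immunoproteasome gene lower. Over all tested genes, that scaling called 3475 higher and 3041 lower. Pdia3 (-0.32), Psmb8 (-0.27), Psme1 (-0.18), Cd8b1 (-0.028), Rag1 (-0.18), Gimap6 (-0.20) and Lyz2 (0.17) changed sign there. With the same FPKM total, which moves the median of all genes to -0.45, the values were -0.74 for H2-T23, -0.059 for B2m and -0.62 for Tap1 and for Tap2, and 0 members were higher and 7 lower. Over all 10326 tested genes, 902 were called higher and 6181 lower with the same FPKM total. That scaling gave 0 heavy chains higher and 10 lower, 0 chaperones higher and 5 lower, 1 immunoproteasome gene higher and 2 lower, and 0 transcription factors higher. It turned Mr1 (-0.12), Calr (-0.095), Hspa5 (-0.17), Pdia3 (-0.55), Erap1 (-0.033), Psmb8 (-0.36), Psme1 (-0.27), Psme2 (-0.078), Nfyc (-0.045), Creb1 (-0.14), Gimap6 (-0.28), Ccl25 (-0.27) and Cd79b (-0.026). GC and length correction gave -0.33 for H2-T23, -0.39 for B2m, 0.37 for Tap1, 0.41 for Tap2 and 0.083 for Tapbp, with 2 members higher and 0 chaperones lower, and turned Pdia3 (-0.11), Prkcsh (0.050) and Ccl25 (-0.47). With the WT libraries counted as 1 sample, H2-D1 (-0.59), B2m (0.50) and Tapbp (-0.35) were no longer called, 0 members were higher and 2 lower, 0 heavy chains higher and 3 lower, 0 chaperones in either direction, 1 immunoproteasome gene higher, and 0 transcription factors higher and 2 lower, of which the fewer degrees of freedom are part. Of the counts of 0 under these settings, 1 heavy chain under quantile normalization and 1 heavy chain, 1 chaperone and 3 transcription factors with WT as 1 sample were higher at an unadjusted p under 0.05. Without the filter, 1 immunoproteasome gene was called lower. The fewer degrees of freedom are built into that averaging. Their share in the lost calls, and the cause of the other shifts, were not tested. Same-numbered WT and cKO libraries did not deviate together (correlations of -0.022, 0.038 and 0.031). The WT libraries lay close to counting noise, so these correlations cannot show whether the numbers pair the libraries. A replicate block left 1 chaperone called lower. That block left 3513 genes called higher and 2954 lower, beside 3693 and 3073 without it. Leaving out 1 library at a time gave a Tap1 to Tap2 log2 ratio of -0.029 to 0.014, Tapbp at -0.44 to -0.24, Pdia3 at -0.077 to 0.072, Lyz2 at -0.13 to 0.036, 1 to 2 heavy chains called higher, 0 to 3 chaperones lower and 2 to 5 immunoproteasome genes higher. The calls over all 10326 tested genes moved as well. They ranged from 3073 higher without WT 2 and 2504 lower without WT 1 to 4113 higher and 3554 lower without cKO 2. Tapbp lost its call without any 1 WT library, and its lowest and highest adjusted p over these omissions were 0.00590 and 0.0668. Depth limits Nlrc5 most, with 81.5 estimated fragments in cKO 1.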
